A study of Mus musculus with 22 samples.

Results

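Chondroitin sulfate, heparan sulfate and the other sulfated glycosaminoglycans are chains of alternating sugars that are built in the Golgi from UDP-sugars and sulfated from PAPS, the activated form of sulfate. The 9 genes described here make or carry those building blocks. Ugp2 makes UDP-glucose, Ugdh oxidises it to UDP-glucuronic acid, and Slc35d1 carries UDP-glucuronic acid and UDP-N-acetylgalactosamine into the endoplasmic reticulum. Slc26a2 takes up sulfate, Papss1 and Papss2 turn it into PAPS, and Slc35b2 and Slc35b3 carry PAPS into the Golgi. Bpnt2, listed on the array under its older name Impad1, breaks down PAP, the by-product of sulfation. The genes were chosen by these roles and found by symbol, older symbol or RefSeq accession. All 9 were on the array, with 16 of its 41174 probes, and all 9 were among the 18642 genes tested. Cartilage makes a matrix very rich in chondroitin sulfate, and loss of SLC26A2, PAPSS2, SLC35D1 or BPNT2 in humans gives skeletal dysplasias with short limbs.

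Forelimbs of mouse embryos of strain 129 at 13.5 days were compared between 13 Chsy1 knockout and 9 wild-type samples, called biological replicates in the series' design. Chsy1, or chondroitin synthase 1, is an enzyme that joins glucuronic acid to N-acetylgalactosamine in the chondroitin chain. The labels give neither the construction of the knockout allele nor whether a sample is 1 embryo or a pool. Each sample's RNA, labelled with Cy5, shared an array with a universal mouse reference RNA labelled with Cy3, with no dye swap. A level below is the log2 ratio of sample to reference after background correction and loess normalisation. A difference is the knockout mean minus the wild-type mean of those levels.

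The 22 arrays held 43379 non-control spots each, of which 27214 to 30599 were well above background in Cy5. Chsy1 averaged -4.38 ± 1.39 in knockout arrays and 1.73 ± 0.28 in wild-type arrays (SD, n = 13 and 9). It was the gene with the smallest p-value, with a difference of -6.11 (95% interval -7.02 to -5.21, limma adjusted p = 1.29e-08). The array labelled knockout replicate 1 stood apart, with Chsy1 at 33.6% of the wild-type mean, against 0.869% to 1.82% in the other 12 knockout arrays. Without it, the supply genes' differences moved by at most 0.024 (Slc35d1). The forelimb factor Tbx5 averaged 2.41 ± 0.25 in knockout and 2.21 ± 0.56 in wild-type arrays (SD). The hindlimb factor Pitx1 averaged 5.45 ± 0.15 in knockout and 5.64 ± 0.27 in wild-type arrays and was above the reference in every array, although the tissue is labelled forelimb. Tbx4, the other hindlimb factor tested, differed by 0.11, against -0.18 for Pitx1. The mean of both factors was lower than Pitx1 alone, at 2.74 to 3.26 in knockout and 2.64 to 3.34 in wild-type arrays. Each of the 6 slides held both genotypes, but slides 4, 5 and 6 held only 1 wild-type array each. Of the 4 array positions on a slide, only position 2 held both (3 knockout and 3 wild-type arrays), while the other 6 wild-type arrays lay in position 1 and the other 10 knockout arrays in positions 3 and 4.

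None of the 9 supply genes differed between Chsy1 knockout and wild-type forelimbs at an adjusted p under 0.05, where 4 of all 18642 genes did (0.0215%), all of them lower in the knockout. Their differences ran from -0.23 (Bpnt2) to 0.12 (Slc35b3), with 5 lower and 4 higher in the knockout. Over all genes 53.4% were lower. The median difference was -0.030 over the 9 genes and -0.0072 over all genes, and the median size was 0.061 and 0.058. The 95% interval lay within 1.5-fold in both directions for all 9, as it did for 96.6% of all genes. The 2 groups overlapped for every supply gene, and over all genes they did not for 1 gene (0.00536%). In whole limbs, fewer cells of a type and less RNA per cell cannot be told apart.

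**Figure D1:**
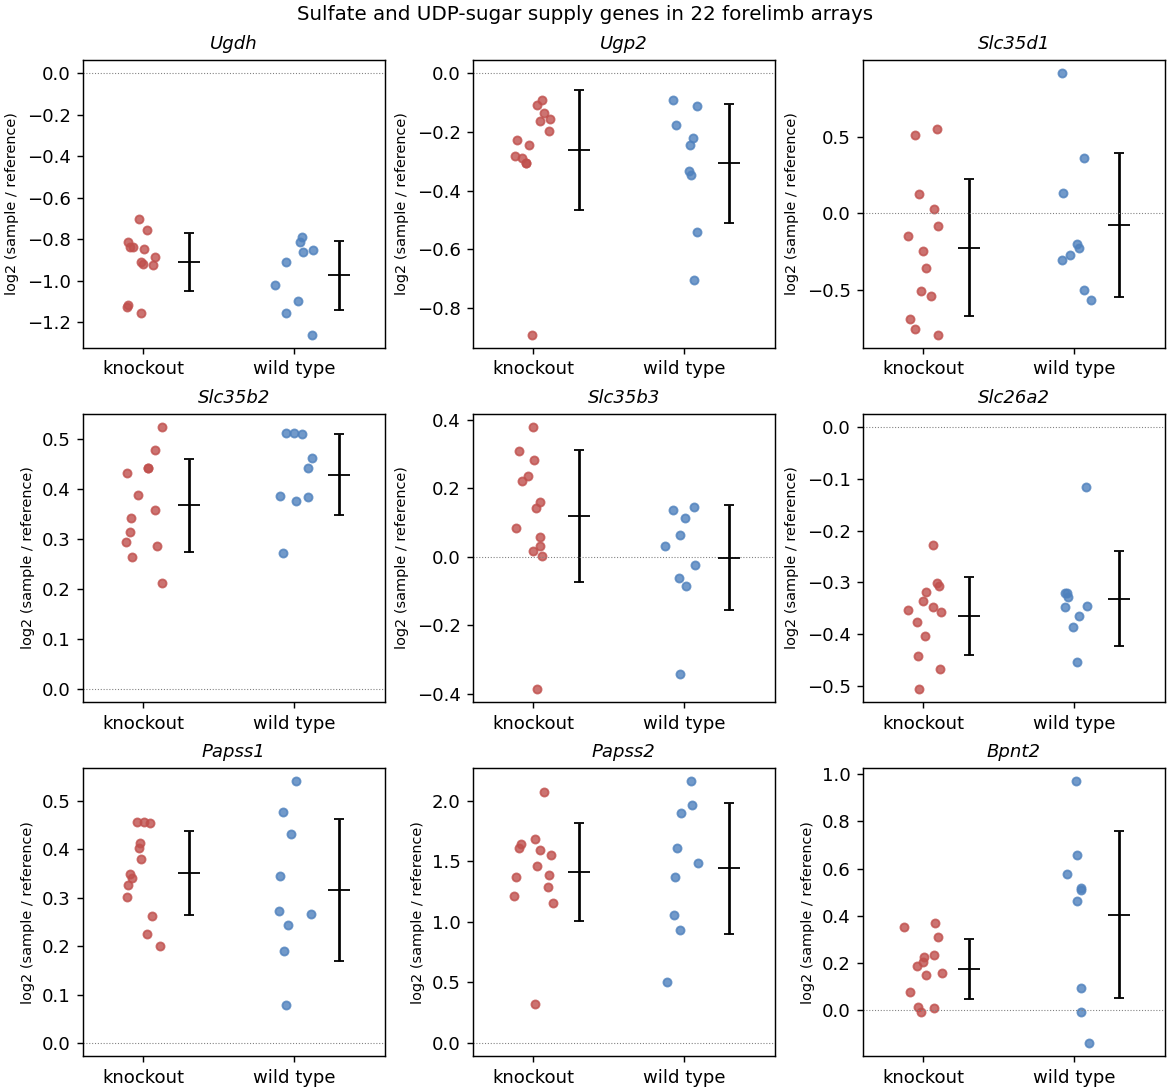
Level (log2 of sample over reference) of each supply gene in 13 knockout and 9 wild-type arrays, 1 point per array, with the mean and SD as a black bar; the dotted line is the reference and the vertical axes differ in range. The groups overlap in every panel, and Papss2 and Slc35d1 spread widely within both genotypes. All 13 knockout values of the brightest Bpnt2 probe lie below its wild-type median of 0.51. Its second probe, not shown, had a knockout median of 0.32 and a wild-type median of 0.27.

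Of the UDP-sugar enzymes, Ugdh ran from -1.16 through a median of -0.89 to -0.70 in knockout arrays, and from -1.26 through -0.91 to -0.79 in wild-type arrays. It was below the reference in every array, and the groups overlapped almost fully. The difference was 0.064 (SE 0.067, 95% interval -0.075 to 0.203, adjusted p = 0.949). Ugp2 ran from -0.89 through -0.23 to -0.09 in knockout arrays, and from -0.70 through -0.25 to -0.09 in wild-type arrays. All 22 of its values also lay below the reference, and the lowest value of either genotype, in knockout replicate 5 and wild-type replicate 3, stood below the bulk of the arrays. The difference of Ugp2 was 0.047 (SE 0.086, 95% interval -0.131 to 0.224, adjusted p = 0.978).

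Slc35d1, the endoplasmic reticulum carrier of both chondroitin sugars, was among the most variable genes on the array. It ran from -0.79 through -0.25 to 0.55 in knockout arrays, and from -0.57 through -0.23 to 0.91 in wild-type arrays. Values on both sides of the reference occurred in both genotypes, with wild-type replicate 3 and knockout replicates 5 and 12 the highest. Its within-genotype SD was larger than that of 96.5% of all genes. The difference was -0.15 (SE 0.184, 95% interval -0.530 to 0.230, adjusted p = 0.955), and it became -0.026 without wild-type replicate 3.

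On the sulfate side, Slc26a2, the plasma membrane sulfate transporter, ran from -0.51 through -0.35 to -0.23 in knockout arrays, and from -0.45 through -0.35 to -0.12 in wild-type arrays. The medians nearly coincided and every array was below the reference. Its difference was -0.034 (SE 0.044, 95% interval -0.124 to 0.057, adjusted p = 0.962), and -0.0066 without wild-type replicate 1, its highest array. Its SD was smaller than that of all but 1.96% of genes. Its probe was dim, however, at a median Cy5 intensity of 184 against a background of 54 to 57, and normexp with an offset narrows the ratios of dim spots.

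The PAPS synthases differed from each other in spread. Papss1 ran from 0.20 through 0.35 to 0.46 in knockout arrays, and from 0.08 through 0.27 to 0.54 in wild-type arrays, so the knockout values lay inside the wild-type range. The difference was 0.035 (SE 0.054, 95% interval -0.077 to 0.148, adjusted p = 0.972). Papss2, the synthase whose loss causes brachymorphism in mice, ran from 0.32 through 1.47 to 2.07 in knockout arrays, and from 0.50 through 1.49 to 2.16 in wild-type arrays. It was above the reference in every array and spread over more than 1.5 log2 units within both genotypes, lowest in knockout replicate 12 and wild-type replicate 1. Its within-genotype SD was larger than that of 96.8% of all genes. The reference signal of its probe was dim, however, at a median Cy3 intensity of 76.8 (361 in Cy5), though well above background on 22 arrays. A second Papss2 probe, well above background on 0 arrays, read 53.8 in Cy3. The part of this dimness in the spread was not tested. The difference of Papss2 was -0.030 (SE 0.187, 95% interval -0.417 to 0.357, adjusted p = 0.992), and it lay between -0.147 without wild-type replicate 1 and 0.061 without knockout replicate 12.

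Of the Golgi PAPS carriers, Slc35b2 ran from 0.21 through 0.36 to 0.52 in knockout arrays, and from 0.27 through 0.44 to 0.51 in wild-type arrays. It was above the reference in all 22 arrays, and 11 of 13 knockout arrays were below its wild-type median. The difference was -0.061 (SE 0.046, 95% interval -0.155 to 0.033, adjusted p = 0.932). Slc35b3 ran from -0.38 through 0.14 to 0.38 in knockout arrays, and from -0.34 through 0.03 to 0.15 in wild-type arrays, with 10 of 13 knockout arrays above the wild-type median and the groups overlapping. The difference was 0.12 (SE 0.077, 95% interval -0.038 to 0.279, adjusted p = 0.924).

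Bpnt2, the Golgi PAP phosphatase, had the largest difference of the 9. It ran from -0.01 through 0.19 to 0.37 in knockout arrays, and from -0.14 through 0.51 to 0.97 in wild-type arrays. Every knockout value (13 of 13) was under the median of the wild type, but inside its range. The share of all genes with this pattern was not counted. The difference was -0.23, or 1.17-fold lower (SE 0.102, 95% interval -0.440 to -0.019). Its unadjusted limma p was 0.034, where 5.33% of all genes had one under 0.05 (3.95% with the knockout lower), and its adjusted p was 0.918. Within the 6 slides the difference ran from -0.80 (slide 6) to 0.14 (slide 4), lower in the knockout on 4 slides. Slides 6 and 4 each held a single wild-type array (1 array). In position 2 the difference was -0.23.

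That difference was seen with 1 of 3 Bpnt2 probes. The brightest, on mm8 at chr4:4691556-4691615, averaged 0.176 ± 0.126 in knockout and 0.405 ± 0.354 in wild-type arrays (SD). The second, at chr4:4689751-4689810, was almost as bright and averaged 0.297 ± 0.138 in knockout and 0.268 ± 0.086 in wild-type arrays. Its difference was 0.029 (95% interval -0.087 to 0.145), and that of the remaining, dim probe was -0.018 (-0.192 to 0.157). The wide wild-type spread thus belonged to the brightest probe, and the mean over the 3 probes differed by -0.073. Over the 22 genotype-centred arrays the brightest probe followed the second with r = 0.18 and rho = 0.26 (permutation p = 0.318 and 0.225, adjusted 0.346 and 0.291 over 5 pairs of probes). With the dim probe it gave the closest of the 5, r = 0.473 and rho = 0.525 (permutation p = 0.030 and 0.017, adjusted 0.151 and 0.087), and r = 0.253 without the 2 farthest arrays.

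Of the other genes with several probes, Ugp2, Slc35b2 and Slc35b3 each had a second tested probe. These differed by 0.0064 (95% interval -0.143 to 0.156), -0.067 (-0.199 to 0.066) and -0.0092 (-0.165 to 0.147). The second Slc35b3 probe was well above background on only 12 arrays, 6 of each genotype. The paired probes correlated with r = -0.22 for Ugp2, 0.30 for Slc35b2 and 0.23 for Slc35b3, none with an adjusted permutation p under 0.05. Both Ugp2 probes were well above background on 22 arrays, with a median Cy5 intensity of 3249 and 2420. Every correlation below rests on the brightest probe of each gene. A second Slc35d1 probe was well above background on 7 arrays and a second Papss2 probe, listed on the opposite strand, on 0, and neither was tested. On mm8 the probes used lie at chr5:65692656-65692715 (Ugdh), chr4:102669722-102669781 (Slc35d1), chr3:131580757-131580816 (Papss1) and chr19:32729219-32729278 (Papss2). No mm8 annotation was used here to place them in exons.

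**Figure D2:**
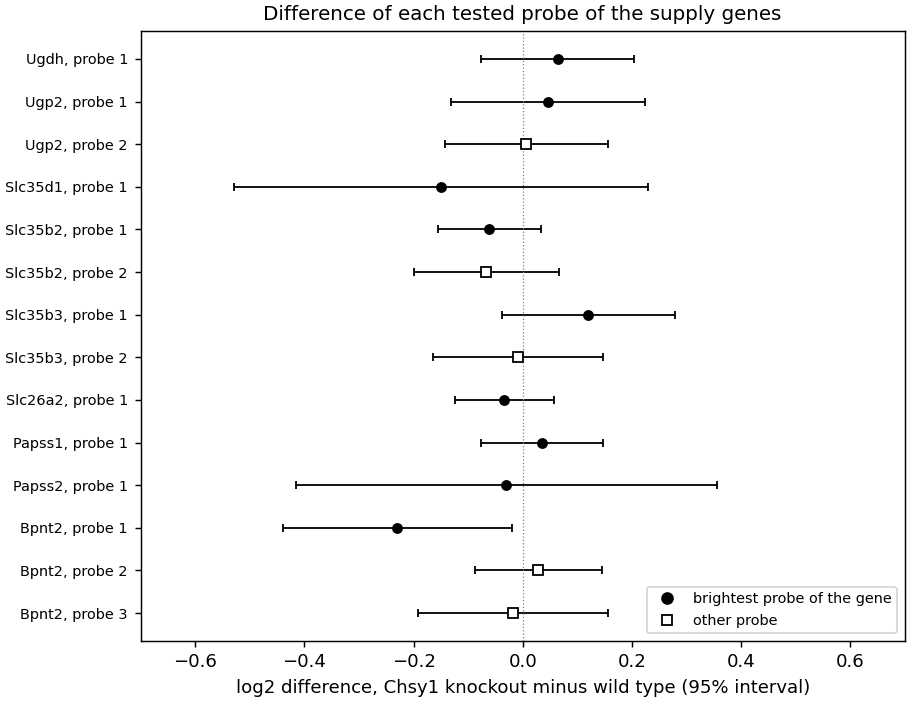
Difference of each of the 14 tested probes (horizontal axis, log2, knockout minus wild type) with its 95% interval; filled circles are the brightest probe of a gene and open squares its other probes. Only the interval of the brightest Bpnt2 probe (-0.440 to -0.019) leaves out 0, and the other 2 Bpnt2 probes centre on 0.029 and -0.018.

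Within slides and positions the other 8 genes also moved to both sides. The difference within a slide ran from -0.75 to 0.91 for Papss2, with 3 slides lower and 3 higher in the knockout, and from -0.67 to 0.28 for Slc35d1. Slc35b2 was lower in the knockout on 5 of 6 slides, at -0.21 to 0.11. The lowest values of Slc35d1 and Slc35b2 came from slide 6, which held 1 wild-type array. In position 2, the only position with both genotypes, Papss2 averaged 1.38 in knockout and 1.65 in wild-type arrays and Slc35b2 0.27 and 0.39, with 3 arrays each. There, Ugdh differed by -0.022, Slc35b3 by -0.0012, Papss1 by -0.013 and Slc35d1 by 0.024, each with the opposite sign to its value over all arrays.

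Some of the supply genes varied together from array to array. Over the 22 arrays, after subtraction of each genotype's mean, 6 of the 36 pairs correlated at a Benjamini-Hochberg adjusted permutation p under 0.05 by both Pearson's r and Spearman's rho, and all 6 correlations were positive. By rho alone 8 pairs passed, with Papss1 joined to Ugp2 and to Bpnt2 as well. The weakest of the 6 had r = 0.605, and 5.51% of all pairs of the 16165 named genes had an r at least as high (10.1% with either sign), against 6 of the 36 supply pairs (16.7%). Correlations of this size were thus common on these arrays. The 6 pairs joined Ugdh, Ugp2, Slc35b3, Papss1 and Bpnt2. Papss2, Slc35d1, Slc26a2 and Slc35b2 were in none of them.

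The tightest pair was Ugdh, which makes UDP-glucuronic acid, and Papss1, which makes PAPS (r = 0.880, rho = 0.881, permutation p = 1e-05, the smallest 100000 resamples can give, adjusted p = 0.00036 for both). The correlation was 0.864 within the 13 knockout arrays and 0.918 within the 9 wild-type arrays, 0.889 after centring on slides, and 0.825 without the 2 arrays farthest from the median of Ugdh. Within positions 1, 2 and 3, with 6 arrays each, it was 0.950, 0.767 and 0.747. The arrays with the least Ugdh also had the least Papss1. Of 16164 other named genes, 45 (0.278%) followed Ugdh at least as closely as Papss1 did, and 1 (0.00619%) followed Papss1 at least as closely as Ugdh did.

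The next pair was Ugp2, which makes UDP-glucose, and the PAPS carrier Slc35b3 (r = 0.879, rho = 0.743, adjusted permutation p = 0.00036 and 0.00324). It was 0.903 within knockout and 0.847 within wild-type arrays, and 0.977, 0.882 and 0.987 within positions 1, 2 and 3. Both genes were lowest in knockout replicate 5 and wild-type replicate 3, and without these arrays r was 0.626. Limma array weights are low where an array departs from the others of its genotype over all genes. They were 0.413 and 0.433 for these arrays, against 0.214 (wild-type replicate 1) to 3.78 (knockout replicate 7) over all arrays. As many as 132 other genes (0.817%) followed Ugp2 at least as closely. The second Ugp2 probe did not follow the brightest (r = -0.215, and 0.258 without the 2 farthest arrays). The relation is thus that of the brightest Ugp2 probe.

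In the 4 weaker pairs, more of the other named genes tracked one partner as closely than in the 2 closest pairs. Ugdh correlated with Slc35b3 (r = 0.733, rho = 0.703, adjusted permutation p = 0.00084 and 0.00333), and 4.60% of other genes followed Ugdh as closely. Slc35b3 and Papss1 gave r = 0.622 and rho = 0.615 (adjusted permutation p = 0.0081 and 0.0179). As closely, 9.35% of other genes followed Slc35b3 and 6.01% followed Papss1. Ugdh and Ugp2, consecutive enzymes of the UDP-glucuronic acid route, gave r = 0.605 and rho = 0.632 (adjusted permutation p = 0.0233 and 0.0202), and 10.5% of other genes followed Ugdh as closely. Ugdh and Bpnt2 gave r = 0.610 and rho = 0.733 (adjusted permutation p = 0.0254 and 0.00324). For this pair, 10.2% of other genes followed Ugdh and 3.53% followed Bpnt2 as closely. Without the 2 arrays farthest from the median of the first-named gene, the 4 correlations were 0.673, 0.543, 0.539 and 0.742. For Ugdh with Slc35b3 and with Ugp2, the arrays left out were wild-type replicate 3 and knockout replicate 13. Knockout replicate 5, the lowest array of both Slc35b3 and Ugp2, stayed in there. The first 3 pairs did not hold within position 2, where r was 0.11 for Ugdh with Slc35b3, -0.48 for Slc35b3 with Papss1 and -0.11 for Ugdh with Ugp2. Ugdh with Bpnt2 gave 0.650, 0.802 and 0.361 within positions 1, 2 and 3, and 0.470 after centring on slides.

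No negative pair passed, and the lowest correlations were those of Slc35d1. It correlated with Slc35b3 at r = -0.532 and with Ugp2 at r = -0.526 (adjusted permutation p = 0.053 for both). Without the 2 farthest arrays r was -0.081 and -0.003. Slc35d1 and Papss2, the genes with the widest spread, gave r = -0.402 (adjusted permutation p = 0.215). Within positions 1, 2 and 3 it was -0.138, -0.648 and 0.135. Without the 2 arrays farthest from the median of Slc35d1 it was -0.623. Knockout replicate 12, the lowest array of Papss2 and a high array of Slc35d1, stayed in.

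**Figure D3:**
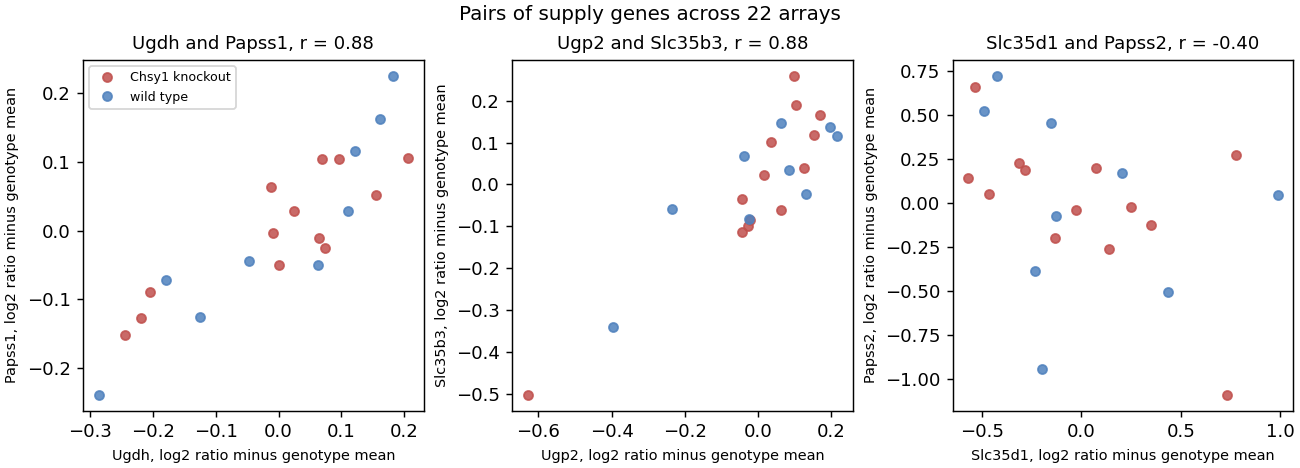
Genotype-centred level (log2 ratio minus the mean of its genotype) of the second gene against the first in 22 arrays, 1 point per array, coloured by genotype. Ugdh and Papss1 fall along a line in both genotypes (r = 0.880), Ugp2 and Slc35b3 too with 2 low arrays at the end (r = 0.879), and Slc35d1 and Papss2 follow a looser, negative relation that missed the threshold (r = -0.402).

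**Figure D4:**
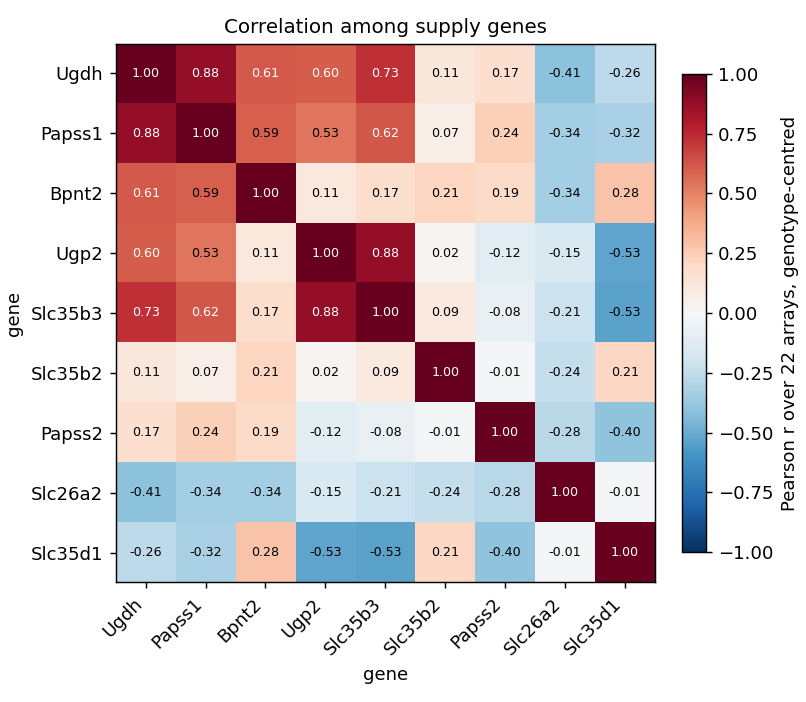
Pearson's r of every pair of supply genes over 22 arrays after centring on genotype, with the value in each cell and red for positive. Ugdh, Papss1, Ugp2 and Slc35b3 are positive with one another (0.532 to 0.880). Bpnt2 gives 0.610 with Ugdh and 0.594 with Papss1, but 0.108 with Ugp2 and 0.173 with Slc35b3. Slc35b2 is weakly positive with all of these genes (0.024 to 0.211). Slc35d1 is negative with Ugp2 (-0.526) and Slc35b3 (-0.532).

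The promoters of the 2 closest pairs are shown because these genes varied together. RefSeq promoter windows (GRCm38.p6) were found for 7 of the 9 genes. Each line gives the 250 bases before the first listed start, 5′ to 3′ on the gene's strand, with matches to the searched motifs in capitals.

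Ugdh: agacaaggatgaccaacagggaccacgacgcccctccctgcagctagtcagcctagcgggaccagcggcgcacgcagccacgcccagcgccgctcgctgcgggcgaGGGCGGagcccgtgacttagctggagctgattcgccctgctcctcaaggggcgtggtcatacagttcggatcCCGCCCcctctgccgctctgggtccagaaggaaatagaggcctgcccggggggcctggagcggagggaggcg
Papss1: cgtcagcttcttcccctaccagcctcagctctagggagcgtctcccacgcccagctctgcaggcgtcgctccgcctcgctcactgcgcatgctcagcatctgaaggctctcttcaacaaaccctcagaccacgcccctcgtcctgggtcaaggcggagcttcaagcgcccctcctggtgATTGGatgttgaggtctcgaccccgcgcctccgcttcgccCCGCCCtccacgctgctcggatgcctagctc
Ugp2: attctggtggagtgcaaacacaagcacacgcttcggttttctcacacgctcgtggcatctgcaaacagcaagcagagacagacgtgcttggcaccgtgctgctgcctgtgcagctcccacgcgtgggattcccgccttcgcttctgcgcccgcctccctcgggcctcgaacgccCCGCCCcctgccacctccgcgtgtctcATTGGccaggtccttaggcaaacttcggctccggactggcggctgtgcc
Slc35b3: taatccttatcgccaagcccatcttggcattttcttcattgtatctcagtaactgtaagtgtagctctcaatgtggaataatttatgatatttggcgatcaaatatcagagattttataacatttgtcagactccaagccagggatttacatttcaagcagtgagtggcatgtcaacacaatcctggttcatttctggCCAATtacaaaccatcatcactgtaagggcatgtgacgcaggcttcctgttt

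The Ugdh window, on chr5:65435843-65436092 (minus strand), was 69.2% G and C and held 2 GC boxes (GGGCGG). That of Papss1, on chr3:131564518-131564767 (plus strand), was 65.2% G and C, with 1 GC box and 1 CCAAT. The Ugp2 window, on chr11:21371268-21371517 (minus strand), held 1 GC box and 1 CCAAT at 64.0% G and C. That of Slc35b3, on chr13:38960880-38961129 (minus strand), held 1 CCAAT and no GC box at 39.6%. The GC box is the site of Sp1-type factors and CCAAT that of NF-Y, and among all 32851 promoter windows 32.7% held the first and 33.8% the second on either strand. The motifs TGACGTCA (cAMP response element, 1.5% of windows), CACGTG (E-box, 6.0%) and ACAAAG (SOX, 16.5%) matched in none of the 7 genes' windows. No motif was common to all 4 windows shown. A second listed start of Slc35b3, at chr13:38960538-38960787, had a window of 65.2% G and C with 1 GC box. With it, each of the 4 genes had a GC box at a listed start, but the share of 32.7% is per window, not per gene with several starts. Slc35d1 and Papss2, which were in no correlated pair, had 2 GC boxes each at the first listed start, and Slc35b2 had 0. The GC box was thus not particular to the paired genes. A match is a run of letters only.

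Beyond the supply genes themselves, the arrays gave for each the named genes with the most similar genotype-centred pattern over 22 arrays, out of 16164. For Ugdh these were Ptpra (rho = 0.921) and Hexim1 (0.920), and for Papss1 Gas1 (0.911) and Fbxo25 (0.906). Ugp2 was closest to Arl1 (0.923) and Acot10 (0.919), and Slc35b3 to Pnpla8 (0.928) and Gorab (0.925). Papss2 was closest to Plekha7 (0.935) and Ccdc3 (0.915), and Slc35d1 to Tmem101 (0.913) and Zcchc17 (0.910). Bpnt2 was closest to Rp9 (0.889) and Adam10 (0.879), and Slc35b2 to Hyi (0.855) and Krt5 (0.841). Slc26a2 was closest to Gpc6 (0.863), a glypican that carries heparan sulfate, and Gnptab (0.824). These are the highest of many values, each pair comes from the same 22 arrays, and r without wild-type replicate 1 ranged from 0.699 (Slc26a2 with Gnptab) to 0.966 (Ugp2 with Arl1).

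Of 99 relations between supply genes and the means of 11 marker lists, 2 passed an adjusted permutation p under 0.05 by both r and rho. How many of all genes follow those means as closely was not computed. Between single named genes, 10.1% of all pairs had an r of at least 0.605 with either sign. Papss2 followed the mean of 9 limb mesenchyme markers (r = 0.820, rho = 0.713, adjusted permutation p = 0.008 and 0.028 over 99 relations with 11 marker lists). Without wild-type replicate 1 and knockout replicate 12, whose array weights were low (0.214 and 0.416), r was 0.570. Within positions 1, 2 and 3 it was 0.796, 0.117 and 0.816. That list's mean ran from 2.23 to 3.18 in knockout and from 2.07 to 3.14 in wild-type arrays. With the cartilage markers, Papss2 gave r = 0.547 and rho = 0.188, which missed the threshold (adjusted permutation p = 0.207 for r), and without the same 2 arrays r was -0.081. Papss2 with 7 endothelium markers gave r = 0.719 and rho = 0.390 (adjusted permutation p = 0.056 and 0.462), and r = 0.196 without those arrays. Slc35b2 followed 7 macrophage markers (r = 0.688, rho = 0.701, adjusted permutation p = 0.030 and 0.028). That relation was 0.546 without its 2 farthest arrays and 0.897, 0.485 and 0.904 within positions 1, 2 and 3. The variation of Slc35b2 was small, with a within-genotype SD of 0.088, at percentile 3.12 of all genes. Its second probe, about as bright, followed the probe used with r = 0.301 (adjusted permutation p = 0.346). Slc35b2 also passed by rho alone with 7 surface ectoderm markers (r = 0.580, rho = 0.674, adjusted permutation p = 0.082 and 0.028), with r = 0.609 without the 2 farthest arrays. The macrophage mean ran from -1.11 to -0.64 in knockout and from -1.12 to -0.71 in wild-type arrays. The part of these cell types in the levels of Papss2 and Slc35b2 was not tested.

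Genes around the supply route gave the same count of calls, 0 in each of 5 lists. Of 21 genes of UDP-sugar synthesis and interconversion, 11 were lower and 10 higher in the knockout, with a median of -0.017. Uap1l1, a relative of UDP-N-acetylglucosamine pyrophosphorylase, differed by -0.15 (95% interval -0.274 to -0.018, adjusted p = 0.918). The other 15 nucleotide sugar transporters of the SLC35 family had a median of -0.016, between -0.11 (Slc35e4) and 0.14 (Slc35e2).

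Of 12 other anion carriers of the SLC26 and SLC13 families, 9 were tested, 3 lower and 6 higher, with a median of 0.017. Slc26a3 differed by -0.18 (95% interval -0.429 to 0.060) and Slc26a1, another sulfate transporter, by 0.072 (-0.091 to 0.235). The kidney sulfate carrier Slc13a1, Slc26a5 and Slc26a8 were not tested, being well above background on 1, 3 and 3 arrays. Among 12 genes that release sulfate from cysteine or break down PAP, 8 were lower and 4 higher with a median of -0.060. Sqor and Tst, which oxidise sulfide and handle thiosulfate, each differed by -0.14 (95% intervals -0.274 to -0.013 and -0.291 to 0.004). Of 15 genes that spend PAPS outside glycosaminoglycans 11 were tested, with 6 lower and 5 higher. The extremes were the cytosolic sulfotransferase Sult1c2 at -0.27 (-0.550 to 0.011) and the galactose sulfotransferase Gal3st4 at 0.19 (-0.029 to 0.401).

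**Figure D5:**
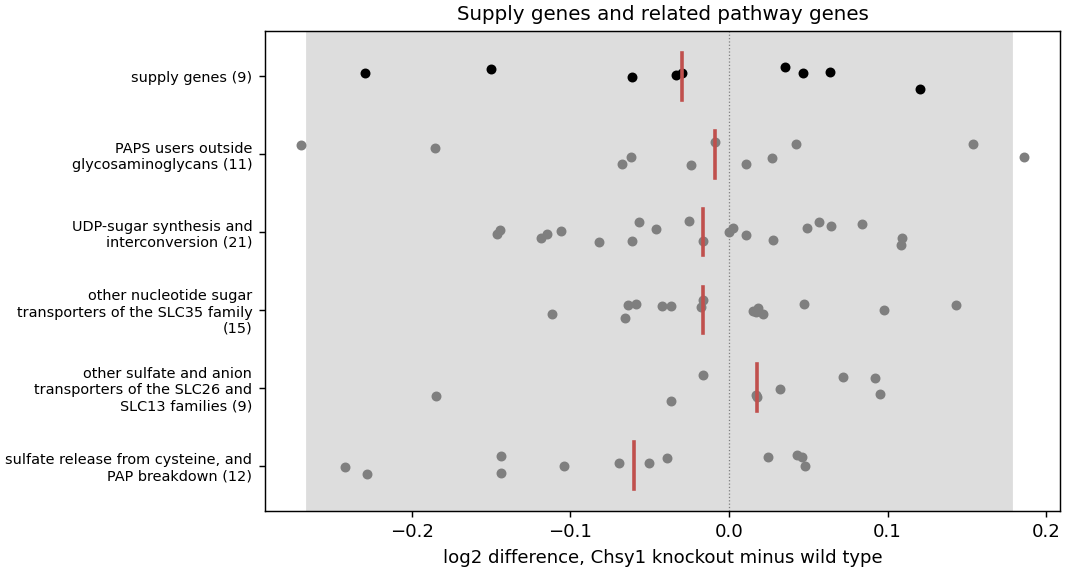
Difference (log2, knockout minus wild type) of the 9 supply genes, in black, and of the tested genes of 5 related lists, in grey, 1 point per gene, with the median in red; the grey band holds the central 95% of all genes, -0.27 to 0.18. The medians lie between -0.060 and 0.017, and nearly every point lies inside the band.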

How the data were processed

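Two-colour Agilent arrays were deposited for 13 Chsy1 knockout and 9 wild-type forelimb samples, grouped by the labels. Per the file headers, the deposited mean and background intensity values are raw, and the deposited scanner ratio is a log10 ratio of processed Cy5 over Cy3 from Agilent Feature Extraction 9.5.3.1 (9.5, per the submitters' processing notes). Spot flags (outlier, saturated, above background) are deposited as 0 or 1. The authors' deposited value table, on the same log10 scale, differed by 0 from the scanner ratio in 22 arrays, and each column's median was 0. Sample, feature and probe columns were read as the files give them.

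Intensities were corrected with normexp (offset 50), normalised by loess within arrays, and averaged per probe. Control and outlier spots were left out. Probes well above background in Cy5 on 9 or more arrays were tested (27803), and the brightest probe stood for a gene. Names were updated through RefSeq (GRCm38.p6), where 23374 probes matched by accession and 6678 by current symbol. The files give probe positions on mm8.

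Differences came from limma 3.58.1 (R 4.3.3) on all arrays without covariates, with Benjamini-Hochberg adjustment over 18642 genes at 0.05 and 95% intervals. Correlations used 100000 permutations within genotype, two-sided. The 2 farthest arrays were those of the first gene or probe of a pair, or of the marker mean. The fit was tested on simulated data. Precision is limited by the number of arrays. The named genes were Chsy1, the 9 supply genes with every probe, 2 genes per pathway list and per supply gene, pairs past 0.05 and limb markers. A gene that this rule names in 1 pathway list is not reported here. The members and lists were chosen with earlier results of these data known. The relations with marker lists and the correlations of probes were added after the other results. Same-numbered knockout and wild-type samples deviated together in only some of 9 pairs (r -0.31 to 0.49, 3 over 0.1). Only 1 wild-type array was closest to the knockout array of its own number, so the numbers were not taken as pairs. Alternatives were the background correction, centring, channel, scanner ratio, probe filter, probe averaging, blocks for number, slide and position, array weights and leaving out each array.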

Additional observations from a re-analysis of the deposited data

Results flagged for a closer look

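Slc35b3, a Golgi PAPS carrier, stood at -0.343 in wild-type replicate 3, apart from the nearest other wild-type array at -0.084. Slc26a2, the sulfate transporter, stood at -0.115 in wild-type replicate 1, apart from the nearest at -0.321. In both, the gap to the nearest array was a larger part of the wild-type range (0.531 and 0.607) than Dixon's 95% critical value for 9 samples. Chance sets aside about 1 in 20 such groups, and 9 genes were examined in wild-type arrays only, since the 13 knockout arrays are too many for this rule. Without wild-type replicate 3 the Slc35b3 difference was 0.078, and without wild-type replicate 1 that of Slc26a2 was -0.0066, both still without an adjusted p under 0.05.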

How the results depend on the processing

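No supply gene reached an adjusted p under 0.05 in any of 34 alternatives (smallest adjusted p 0.107), and 285 of 306 values kept their direction. Median centring moved the median of all genes to 0.24. It turned Slc35d1 to 0.115, Slc35b2 to 0.286, Slc26a2 to 0.120, Papss2 to 0.101 and Bpnt2 to 0.108, but relative to that shift only Slc35b2 changed sign (0.048). With Cy5 alone Slc26a2 was 0.0041, and with a replicate block Papss2 was 0.024. With a position block, and within position 2, Ugdh was -0.022, Slc35d1 0.024, Slc35b3 -0.0012 and Papss1 -0.013. Position 2 without the array labelled knockout 1, an alternative chosen after seeing the data, gave Slc35d1 0.184. Leaving out arrays in turn took Papss2 from -0.147 to 0.061 and Ugp2 from -0.0028 (without wild-type replicate 3) to 0.099. Papss2 was positive at 0.027, 0.060, 0.035 and 0.061 without wild-type replicates 2, 5 and 8 and knockout replicate 12. The count of all genes called, 4, was 1 with median centring, the scanner ratio, a replicate block, a slide block or a position block, 0 within position 2, 1 there without knockout 1, and 7 with array weights. It ran from 2 (without wild-type replicate 2, 5 or 6) to 6 (without wild-type replicate 8). The 6 correlated pairs became 22 with median centring. The causes were not tested.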
